A study of Drosophila melanogaster with 12 samples.

Results

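The troponin genes of Drosophila melanogaster were followed through the larval body wall in 4 groups. The 7 genes are up (troponin T), wupA (troponin I) and the troponin C genes TpnC73F, TpnC47D, TpnC25D, TpnC41C and TpnC4. They were found by name in the gene column of both deposited tables, where each has a row of its own among 13650 rows. RNA came from carcass, the muscle and epidermis left after the gut is dissected away, of foraging larvae late in the last instar, with 3 libraries in each group. One experiment set smox larvae, hemizygous for the F4 allele of Smox (genotype Smox(Smad2)F4/Y, so male), against w1118 larvae, the white-eyed stock used as wild type and of a sex the labels leave unstated. Both ate yeast paste on apple juice plates, without treatment. Smox is the Smad transcription factor of the Activin pathway, and its own transcript went from 23.9 to 1.40 FPKM in the smox group. The other experiment set tub-Gal80ts/+;MhcGal4/baboACT larvae, called baboACT here, against tub-Gal80ts/+;MhcGal4/+ larvae, called MhcGal4. The baboACT larvae express the activated Activin receptor Baboon under a driver that takes its muscle activity from the Mhc promoter. Gal80ts, an inhibitor of Gal4, limits that driver at low temperature. The receptor gene babo went from 13.2 to 15.6 FPKM with the transgene (log2 fold change 0.23; authors' deposited table, q = 0.00424), and whether transgene reads count there is not stated. Both groups were reared on standard vial food and kept at 30 °C for 12 h before RNA extraction, so both carry the driver, the inhibitor and the heat.

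Troponin is the calcium switch of striated muscle. Troponin T ties the complex to tropomyosin on the actin filament, troponin I holds the filament off, and troponin C binds the calcium released at each contraction and lifts that block. Flies carry single genes for troponin T and I, which are diversified by splicing, and several genes for troponin C, of which TpnC41C and TpnC4 are known mainly from adult muscles, including the stretch-activated flight muscle.

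The tables give 1 FPKM per gene and group, that is a fragment count scaled by the length of the transcript and the size of the library. No spread between libraries can be had from them, and read depth is unknown. A gene is called, or said to have risen or fallen, where its q, the p-value adjusted over the table, was under 0.05 in the authors' deposited table. Replicate libraries are not tied to separate animals in the labels, so part of the spread behind q may be technical. The experiments differ in food, temperature and genetic background and have a table each, so levels are set side by side only inside 1 experiment.

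Troponin transcripts were among the most abundant in the carcass. Those of the 7 genes together summed to 15998 FPKM in w1118 and 16024 FPKM in smox, each 1.66% of all FPKM in its group. The sum was 21046 FPKM in MhcGal4 (2.79%) and 16668 FPKM in baboACT (2.05%). The totals behind these percentages hold exact 0 values of abundant genes, Mhc in smox and in MhcGal4 among them. Such values can be failed estimates, so the percentages cannot be compared between groups. Within every group the order of levels was the same: up, then wupA, TpnC73F, TpnC47D, TpnC25D and TpnC41C. TpnC4 was listed last, at 0 in w1118 and smox, where an exact 0 can be a failed estimate. With no spread between libraries, it is not known which neighbours in this order differ beyond their error. TpnC73F and TpnC47D were close in MhcGal4, at 3190 and 3103 FPKM.

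**Figure D1:**
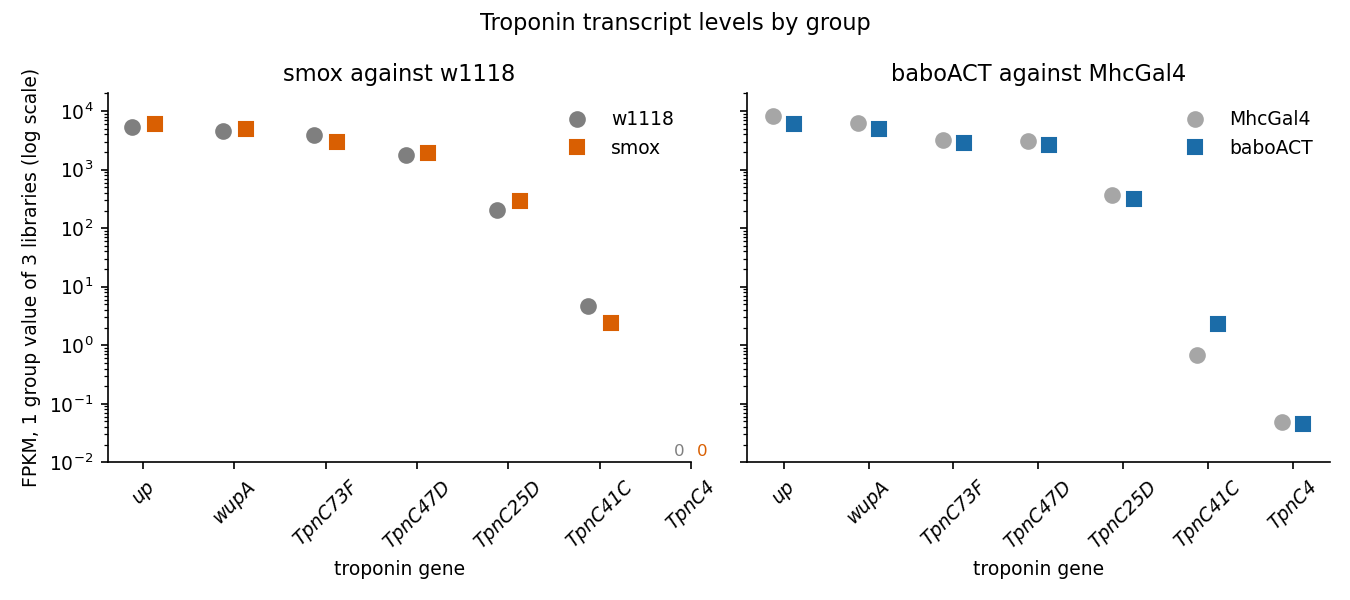
FPKM of the 7 troponin genes on a log axis, with 1 point per group (circles for the reference, squares for the mutant or expressing group). There are no error bars because values of single libraries were not available. The 5 genes at left lie at or above 208 FPKM in every group, TpnC41C lies below 5, and TpnC4 is at 0 (printed as 0) or below 0.05.

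In smox larvae the summed troponin level hardly moved, but the troponin C genes changed in different directions. TpnC73F fell while TpnC47D and TpnC25D rose, and the rare TpnC41C fell. Troponin T rose slightly and troponin I was not called. Of the 6 genes measured (tested by the authors, with a mean of at least 1 FPKM), 5 were called, of which 3 were higher and 2 lower. Over all 7977 genes measured, 58.1% were called, 18.4% higher and 39.8% lower, so the count of called troponin genes says little by itself. The median log2 fold change of the 6 genes was 0.11, beside -0.14 for all measured genes. In bulk carcass, a changed share of muscle cells and changed RNA per muscle cell cannot be told apart.

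Troponin T, encoded by up on the X chromosome from 13487610 to 13496536, stood at 5442 FPKM in w1118 and 5964 in smox. This difference of 0.13 on the log2 scale was called with a q of 0.0484, just under the threshold, in the authors' deposited table. Its row ranked 16th by FPKM in w1118 and 16th in smox. Troponin I, encoded by wupA on the X chromosome from 17999586 to 18010855, stood at 4611 FPKM in w1118 and 4888 in smox, or 0.08 on the log2 scale, and was not called (authors' deposited table, q = 0.215). Both of these subunits were thus within 10% of their w1118 level. As both genes are X-linked and the smox larvae were male, the median log2 fold change of X-linked genes is given beside them: it was -0.15 over 1304 genes, and -0.14 over 6561 genes of chromosomes 2 and 3. The male-specific RNA roX1 went from 63.9 to 103 FPKM, and the part of sex in the troponin values was not tested.

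TpnC73F, on 3L from 17039264 to 17041490, was the main troponin C gene of w1118 carcass. It fell from 3958 FPKM to 2932 FPKM in smox (log2 fold change -0.43), with the lowest q of the authors' deposited table (0.000152). That q is a floor shared by many genes, Act42A, Unc-89 and Mef2 among them, so it does not rank TpnC73F above them. At -1026 FPKM, the fall of TpnC73F was the largest difference in level of any troponin C gene in either experiment.

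TpnC47D, on 2R from 7161540 to 7162796, moved the other way, from 1774 to 1952 FPKM in smox. Its log2 fold change was 0.14, and the q in the authors' deposited table was 0.0386. TpnC25D, on 2L within the interval 5218260 to 5271353, rose from 208 to 286 FPKM, or by 0.46 on the log2 scale. Its q was again the lowest of the authors' deposited table, the floor shared by many genes. The tables give TpnC25D the same interval as tkv, a BMP receptor gene, and the Cyp4ac genes. In the BDGP6 annotation, TpnC25D and tkv lie on opposite strands and their exons overlap by 54 bases, and whether the libraries kept strand is not given. The FPKM of tkv went from 29.2 to 13.4 in smox, against the direction of TpnC25D.

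**Figure D2:**
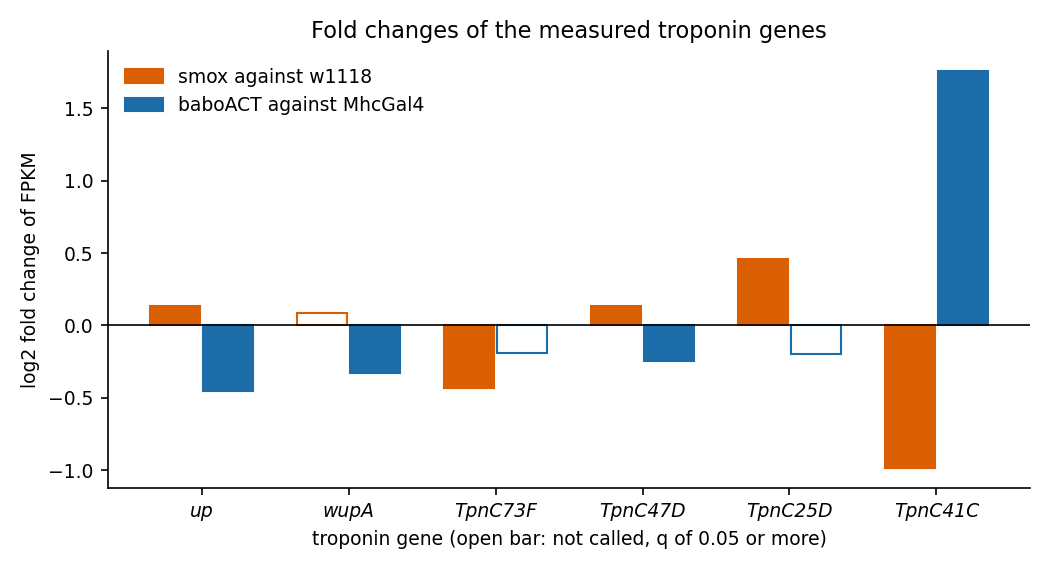
Log2 fold change of FPKM for the 6 measured troponin genes, smox against w1118 in orange and baboACT against MhcGal4 in blue, with open bars where q was 0.05 or more. The 5 abundant genes all lie below 0 in the baboACT experiment, from -0.45 to -0.19, whereas in smox they range from -0.43 to 0.46.

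Because FPKM is scaled by transcript length, the troponin C genes can be set side by side as shares of their summed FPKM. The sum went from 5945 in w1118 to 5172 in smox, a log2 change of -0.20. TpnC73F made up 66.6% of it in w1118 and 56.7% in smox, a difference of -9.89 percentage points. The share of TpnC47D was 29.8% in w1118 and 37.7% in smox, and that of TpnC25D 3.50% and 5.53%. The ratio of TpnC73F to TpnC47D went from 2.23 to 1.5. Against the other subunits, summed troponin C stood at 1.29 times troponin I in w1118 and 1.06 times in smox, while the ratio of troponin T to troponin I was 1.18 and 1.22. These shares and ratios have no error and no test. How reads that match more than 1 gene were counted is not given. The sequences of the troponin C genes were not compared, so whether reads were split between TpnC73F and TpnC47D is not known.

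**Figure D3:**
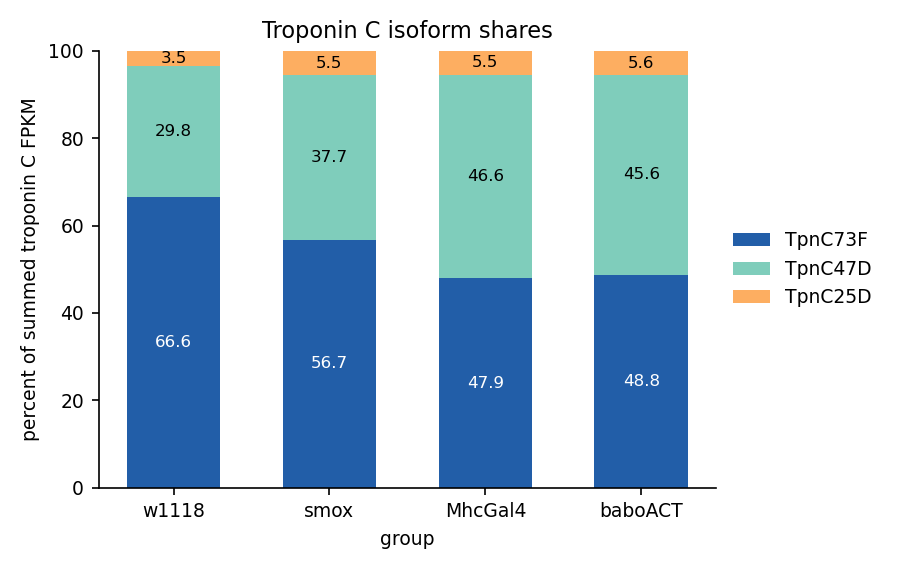
Share of summed troponin C FPKM held by TpnC73F, TpnC47D and TpnC25D in each group, as stacked percentages with no error. TpnC73F holds 66.6% in w1118 and 56.7% in smox, whereas the shares in MhcGal4 and baboACT are nearly alike. TpnC41C and TpnC4 are too small to be seen.

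With activated Baboon in muscle, the 5 abundant troponin genes were all listed below MhcGal4, and 3 of them, up, wupA and TpnC47D, fell. The rare TpnC41C rose. Of 6 genes measured 4 were called, of which 1 was higher and 3 lower. Over all 8018 genes measured, 43.8% were called, 29.1% higher and 14.7% lower. The median log2 fold change of the 6 genes was -0.22, and that of all measured genes 0.08. Here too, fewer muscle cells and less RNA per muscle cell cannot be told apart.

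Troponin T went from 8150 FPKM in MhcGal4 to 5959 FPKM in baboACT and so fell by 26.9% (-0.45 on the log2 scale; authors' deposited table, q = 0.000217). Troponin I fell from 6238 to 4969 FPKM, with a log2 fold change of -0.33 (authors' deposited table, q = 0.000411). Both subunits thus fell, and the ratio of troponin T to troponin I was 1.31 in MhcGal4 and 1.20 in baboACT. The genotypes of MhcGal4 and baboACT name no sex. The median log2 fold change of X-linked genes was 0.05 over 1325 genes, and 0.08 over 6583 genes of chromosomes 2 and 3. In MhcGal4 and baboACT, roX1 was at 119 and 122 FPKM, and the related RNA roX2 at 36.3 and 24.3 FPKM. The part of sex was not tested here either. TpnC47D fell from 3103 to 2617 FPKM (-0.25 on the log2 scale; authors' deposited table, q = 0.0104). TpnC73F was at 3190 FPKM in MhcGal4 and 2801 in baboACT and was not called (-0.19 on the log2 scale; authors' deposited table, q = 0.0615). Nor was TpnC25D, at 366 and 319 FPKM (-0.20 on the log2 scale; authors' deposited table, q = 0.157), while its neighbour tkv went from 23.4 to 31.7 FPKM.

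The balance among troponin C genes was nearly the same in both groups of this experiment. TpnC73F held 47.9% of the summed troponin C FPKM in MhcGal4 and 48.8% in baboACT, and TpnC47D held 46.6% and 45.6%. The sum itself went from 6659 to 5740 FPKM, a log2 change of -0.21. Summed troponin C relative to troponin I was 1.07 in MhcGal4 and 1.16 in baboACT.

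The lower troponin values stood among lower values of other abundant transcripts. Of 155 measured genes with a mean of at least 1000 FPKM, a class that holds 4 of the troponin genes, 94 fell and 27 rose with activated Baboon, and the median log2 fold change of the class was -0.25. In smox the same class had 172 genes, 36 of them higher and 49 lower, with a median of -0.04. The larval muscle markers also moved. Of 5 measured in the baboACT experiment, 3 fell and 0 rose: Mlc1 (8429 to 6080 FPKM), Tm2 (5013 to 3516) and Prm (2698 to 1793). Act87E (2777 and 2712 FPKM) and Mlp60A (4728 and 4854 FPKM) were not called. Their median log2 fold change was -0.47, below that of each troponin gene measured, whereas in smox it was 0.05 over 6 markers. Mhc, Mlc2 and Act57B are listed at 0 in MhcGal4 and Act57B in baboACT. Since an exact 0 of such abundant genes can be a failed estimate, the marker sums of 23644 and 33039 FPKM cannot be compared.

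How troponin stood relative to abundant partners in baboACT depended on the partner. Troponin I relative to Mlc1, the essential myosin light chain, was 0.740 in MhcGal4 and 0.817 in baboACT, and troponin T relative to Mlc1 was 0.967 and 0.980. Relative to the tropomyosin gene Tm2, troponin I went from 1.24 to 1.41 and troponin T from 1.63 to 1.69. Relative to the muscle actin gene Act87E, which was not called, troponin T went the other way, from 2.94 to 2.20, and troponin I from 2.25 to 1.83. Relative to Mlp60A, a muscle LIM protein gene that was not called either, troponin T went from 1.72 to 1.23 and troponin I from 1.32 to 1.02. In smox, where Tm2 rose, troponin T over Tm2 went from 1.52 to 1.42 and troponin I over Tm2 from 1.29 to 1.16. Centred on the median of the muscle markers, a setting added after the data were seen, the log2 fold changes in baboACT were 0.02 for up, 0.14 for wupA and 0.23 for TpnC47D, the opposite direction. That median is the value of Mlc1 itself, and against the uncalled Act87E and Mlp60A the direction stayed negative for up and wupA, as the ratios above show.

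**Figure D4:**
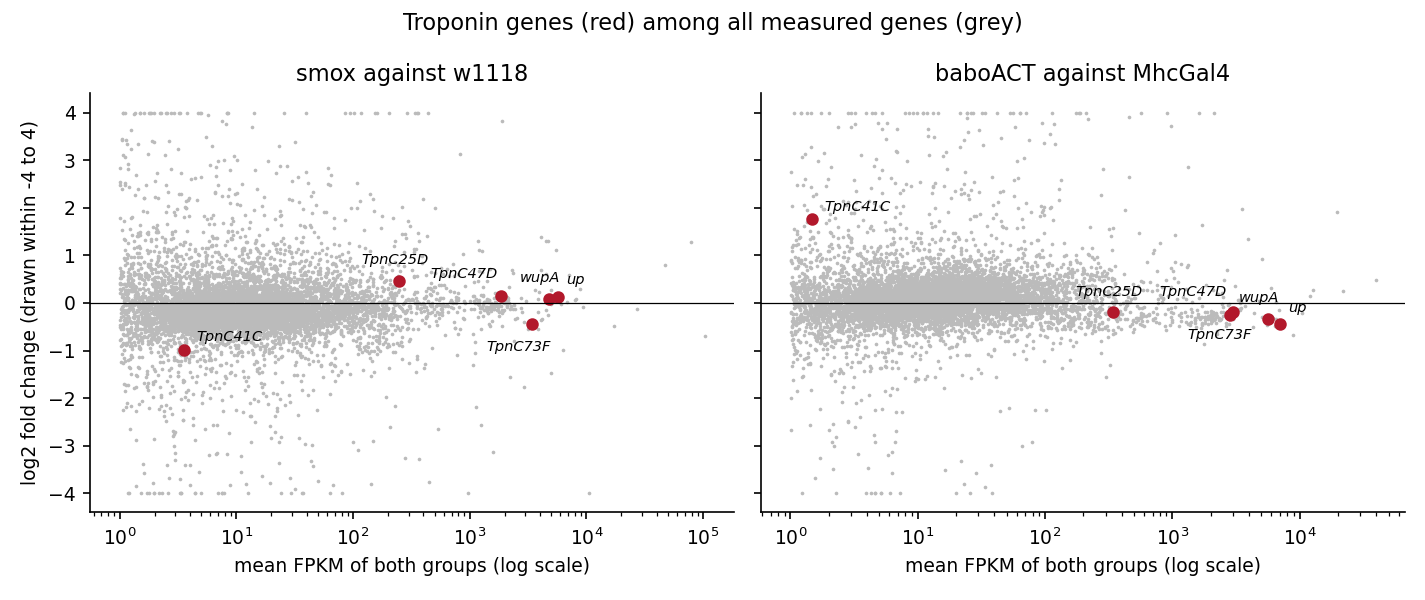
Log2 fold change against mean FPKM (log axis) for every measured gene in grey and the 6 measured troponin genes in red, smox at left and baboACT at right, with grey values drawn within -4 and 4. In the baboACT panel the abundant troponin genes sit below 0 within a band of abundant genes whose median is -0.25.

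The troponin C genes known from adult muscles had the lowest listed values of the family. TpnC41C, on 2R from 953796 to 957715, went from 4.71 FPKM in w1118 to 2.38 in smox, or -0.98 on the log2 scale (authors' deposited table, q = 0.00176). In the other experiment it went from 0.673 FPKM in MhcGal4 to 2.28 in baboACT, or 1.76 on the log2 scale (authors' deposited table, q = 0.021). It was the largest fold change of any troponin gene in both experiments but a small one in transcripts, since TpnC41C made up at most 0.0793% of the summed troponin C FPKM. With a pseudocount of 1 FPKM its log2 fold changes were -0.76 and 0.97. TpnC4, on 2R within the interval 1384184 to 1437058, is listed at 0 in w1118 and smox, which can be a failed estimate since Mhc in smox and Act57B in both groups are listed at 0 in that table too. It is listed at 0.0489 and 0.0447 FPKM in MhcGal4 and baboACT, where the authors did not test it. In the BDGP6 annotation TpnC4 lies inside CG30438, now Ugt50B3, on the opposite strand, with 0 bases of shared exon. Among other genes of adult flight or tubular muscle, Act88F, Act79B and the flightin gene fln were listed at or below 0.0813 FPKM in every group, lower than TpnC41C. Act79B in w1118 and Act88F in baboACT are exact 0 values, which can be failed estimates. The flight muscle regulator salm was at 2.39 and 2.30 FPKM in w1118 and smox and at 2.65 and 2.27 FPKM in MhcGal4 and baboACT, and was not called.

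The genes up, TpnC47D and TpnC41C were called in both experiments, and all 3 moved in opposite directions in smox and baboACT. Among 7768 genes measured in both, 2429 were called in both and 79.8% of these moved in opposite directions, so this was the common pattern. For up and TpnC47D the opposition depended on the scaling. Centred on the median of the muscle markers, up came to 0.08 in smox and 0.02 in baboACT, and TpnC47D to 0.08 and 0.23. TpnC41C stayed opposite, at -1.04 and 2.23. The reference groups of the experiments are separate libraries. The remaining 3 measured genes were called in 1 experiment each: TpnC73F and TpnC25D in smox, wupA in baboACT. Calls in 1 experiment only were common too, as 4638 genes were called in smox (58.1%) and 3512 in baboACT (43.8%), but 2429 in both. This count of members therefore says little by itself.

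The deposited p-values are not the tails of the deposited test statistics, and this touches the calls of the abundant subunits. Read as a normal deviate, two-sided and Benjamini-Hochberg adjusted over all measured genes, the authors' test statistic of up in baboACT gave an adjusted p of 0.075, that of wupA 0.141 and that of TpnC47D 0.0748. In smox it gave 0.458 for up and 0.137 for TpnC47D. The calls of TpnC73F, TpnC25D and TpnC41C in smox and of TpnC41C in baboACT held under that reading, with adjusted p of 0.000403, 0.000276, 0.00306 and 0.00772.

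The rest of the contractile machinery was read from lists of genes chosen with earlier results of these data known. On the thin filament, where troponin sits, 1 of 6 measured genes rose and 3 fell in smox, with a median log2 fold change of -0.14. Tm2 rose (3576 to 4208 FPKM, log2 fold change 0.23) and the cytoplasmic actin gene Act42A fell most (-0.34), while Tm1 (4862 and 4838 FPKM) and the muscle actin gene Act87E (3016 and 3086 FPKM) were not called. With activated Baboon 3 rose and 2 fell, with a median of 0.10. The risers were the cytoplasmic actin genes Act5C (0.45) and Act42A, and tmod, which caps the pointed ends of thin filaments. The 2 that fell were the tropomyosin genes Tm1 (7438 to 5311 FPKM, -0.49) and Tm2 (-0.51), the direct partners of troponin T.

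Of the measured thick filament genes, 2 of 6 rose and 1 fell in smox (median log2 fold change 0.06). With activated Baboon 0 of 5 rose and 4 fell (median -0.38). Mhc was measured in neither experiment, being listed at 0 in smox and in MhcGal4. Mlc2 was listed at 0 in MhcGal4, beside 10733 FPKM in baboACT, and so was not measured there. An exact 0 of such abundant genes can be a failed estimate. Unc-89, the giant M-line protein gene, went from 87.7 to 123 FPKM in smox (0.49) and from 140 to 107 in baboACT (-0.38). The myofilin gene Mf fell in both, with log2 fold changes of -0.26 and -0.30, and Prm, the paramyosin gene, fell most in baboACT (-0.59). Among 13 measured genes of the Z-disc and elastic filaments, 5 rose and 6 fell in smox (median -0.18), from Fhos at -0.92 to Msp-300 at 0.99. In baboACT 4 rose and 6 fell (median -0.20), from Msp-300 at -0.47 to the actin capping gene cpa at 0.39.

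**Figure D5:**
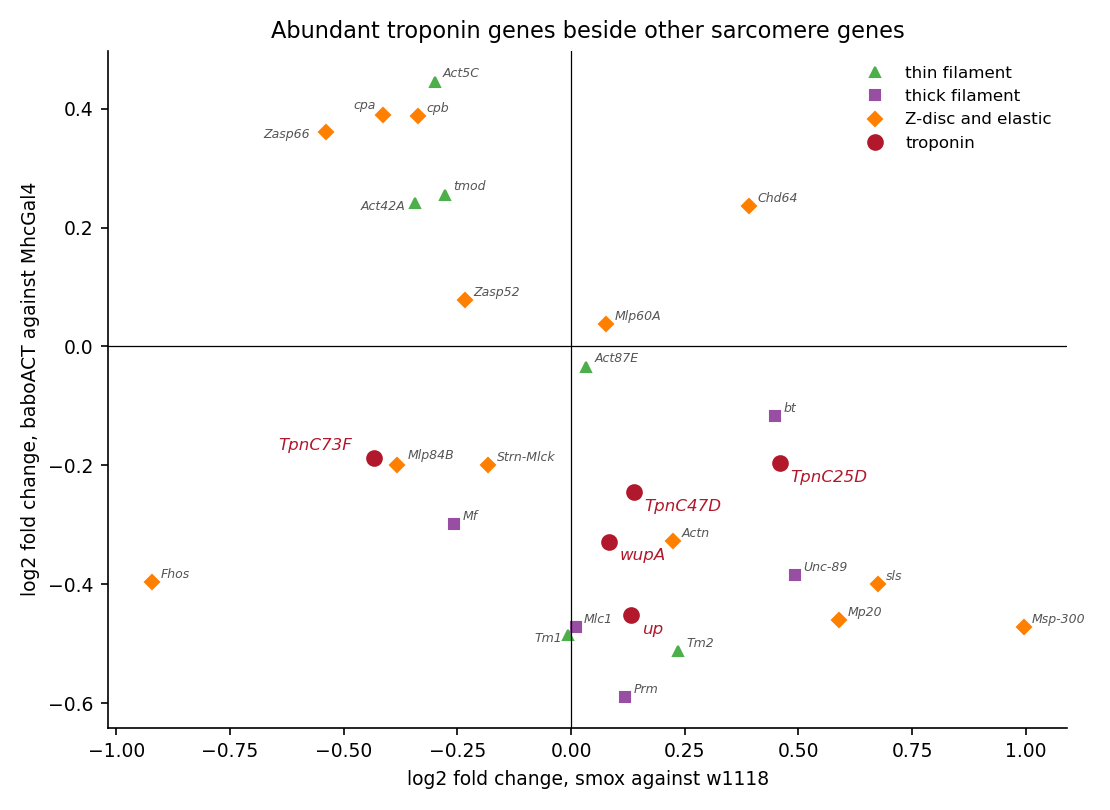
Log2 fold change in smox (horizontal) and in baboACT (vertical) for the 5 abundant troponin genes in red and the measured genes of the thin filament, thick filament and Z-disc lists. Each point is 1 gene without error. The troponin genes other than TpnC73F lie at lower right, with Tm2, Prm, Actn and Unc-89, and TpnC73F lies at lower left beside Mlp84B and Mf.

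Genes of calcium handling, a list that mixes release, entry, removal and binding of calcium, moved in both directions. In smox 3 of 11 measured rose and 3 fell (median log2 fold change -0.12). Ca-alpha1D, the muscle calcium channel gene, went from 5.55 to 8.25 FPKM (0.57), Rya-r44F, the ryanodine receptor gene, from 19.9 to 29.3 FPKM (0.56), and the sodium-calcium exchanger gene Calx from 7.18 to 4.51 FPKM (-0.67). In baboACT 4 rose and 1 fell (median 0.09), with Scp2, a sarcoplasmic calcium-binding protein gene, going from 5.89 to 15.1 FPKM (1.36) and Rya-r44F from 27.4 to 21.6 FPKM (-0.34). Ca-P60A, the SERCA pump gene, was not called in either experiment, at 1521 and 1396 FPKM in w1118 and smox and at 1348 and 1187 FPKM in MhcGal4 and baboACT.

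EF-hand relatives of troponin C outside the sarcomere were called in both directions, with the same lean as all measured genes, of which more were lower than higher in smox (39.8% and 18.4%) and more higher than lower in baboACT (29.1% and 14.7%). In smox 1 of 7 rose and 6 fell (median log2 fold change -0.36), with the calmodulin gene Cam going from 462 to 377 FPKM (-0.29) and Mlc-c from 179 to 122 FPKM (-0.55). Frq2 rose there, from 0.937 to 2.08 FPKM (1.15). In baboACT 5 rose and 1 fell (median 0.30), with Cam going from 385 to 478 FPKM (0.31), Mlc-c rising from 105 to 158 FPKM (0.59) and Frq2 from 2.31 to 1.41 FPKM (-0.71). Of the regulators of muscle genes, Mef2, a transcription factor of muscle differentiation, rose in smox from 26.0 to 35.9 FPKM (0.46) and was at 42.4 and 46.6 FPKM in MhcGal4 and baboACT, where it was not called. That list had 2 of 10 genes higher and 5 lower in smox (median -0.44), with ap falling most (-0.81), and 4 of 11 higher and 0 lower in baboACT (median 0.14), with hth rising most (0.66).

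Markers of several other cell types moved as well, but not of all. Salivary glue genes fell in 5 of 5 cases in smox, their sum going from 495 to 31.4 FPKM, and rose in 6 of 6 cases in baboACT, from 52.7 to 2098 FPKM. Fat body markers went 5 up and 2 down in smox (sums of 952 and 1951 FPKM), and 1 up and 4 down in baboACT (1443 and 771 FPKM). Of 4 measured epidermal cuticle markers 2 rose and 1 fell in smox, and 3 rose in baboACT. Midgut markers, from an organ that had been dissected away, fell in 4 of 4 measured cases in smox, their sum going from 417 to 52.0 FPKM, and in 2 of 4 in baboACT, from 375 to 120 FPKM. Tracheal markers went 3 up and 0 down of 5 in smox, and none of the 5 was called in baboACT. Hemocyte markers went 1 up and 3 down of 4 in smox and 0 up and 2 down in baboACT. Neuron and glia markers had 0 calls of 4 measured in smox and 0 of 5 in baboACT, and the 1 measured muscle precursor marker was not called in either. The part of these cell types in the troponin values was not tested.

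The annotation offers more variety than these gene-level values can show. In BDGP6, up has 18 coding transcripts for proteins of 306 to 397 residues, and wupA has 13, for 184 to 269 residues. TpnC73F, TpnC47D, TpnC41C and TpnC4 each have 2 transcripts for a protein of 1 length, 153 to 155 residues, and TpnC25D has 3, for 143 or 149 residues. A shift among the splice forms of troponin T or I is not seen in 1 FPKM per gene.

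Genes with the most similar pair of fold changes were found among 4372 other genes with a mean of at least 10 FPKM over the 4 groups. Likeness was the Euclidean distance in the 2 log2 fold changes, so it rests on 2 numbers per gene. Nearest to up were Trap1, RpS24 and CG7686, at distances of 0.011 to 0.016, and 42 genes lay within 0.1. Nearest to wupA were l(2)efl, Tango7 and CG6412, and l(2)efl, at 0.0050, went from 3772 to 3988 FPKM in smox and from 7216 to 5736 FPKM in baboACT. Nearest to TpnC73F were mRpL10, mRpL15 and mRpS10, at 0.038 to 0.046. Nearest to TpnC47D were CG4020, CG12171 and CG8885, and nearest to TpnC25D were mio, alpha-Est7 and CG9319.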

How the data were processed

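Carcass RNA was made into libraries with a TruSeq kit, per the labels' protocols. Cufflinks and Cuffdiff are named, without versions, per the submitters' processing notes. The aligner, build, annotation, strandedness and read numbers were not given in the sources used here. Per the file headers, the authors deposited 2 tables with 1 FPKM per gene and group, a log2 fold change, a test statistic (a score with no fixed range), a p-value and a q-value. 0 columns hold single libraries, so the planned limma test was not run and the authors' q stands in. The lowest deposited p was 5e-05.

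From these values, fold changes were computed as log2 of the FPKM ratio with no pseudocount, with pandas 2.3.3, and the code was tested on simulated data. A gene was measured where the authors tested it, its name occurs once, FPKM was above 0 in both groups and the mean was at least 1. The 7 members were taken by name, with all their values. From each list, the text names the called genes with the largest rise and fall, and muscle genes set beside a member. A few further genes (Cam, tmod, Unc-89, Mf, Rya-r44F, Ca-P60A, Mef2) were named for their role after their values were seen. Members and lists were chosen with earlier results of these data known. Starts in the tables count from 0, so 1 was added. BDGP6, another build, served only for names, lengths and overlaps. No sequences are shown.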

Additional observations from a re-analysis of the deposited data

How the results depend on the processing

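Counts of called troponin genes depended on how a call was made. At q under 0.01 in the authors' deposited table, 3 rather than 5 were called in smox and 2 rather than 4 in baboACT. With the normal tail of the authors' test statistic, chosen after seeing the data, the counts were 3 and 1. Centred on the larval muscle markers, also chosen after seeing the data, only 1 of the 4 calls in baboACT (TpnC41C) kept its direction: up came to 0.019, wupA to 0.14 and TpnC47D to 0.23, and TpnC73F and TpnC25D, not called, to 0.28 each. All 5 in smox kept theirs. Under quantile normalization up in smox came to 0 on the log2 scale. Centring on all genes, equal FPKM sums and equal upper quartiles turned 0 of 12 fold changes. The FPKM sums hold exact 0 values of abundant genes that can be failed estimates, which limits that setting. A pseudocount of 1 and the authors' log2 fold change also turned 0, but neither could turn a sign. The pseudocount leaves the larger FPKM larger, and the authors' values rest on the same FPKM. The counts were the same with no filter on FPKM or with single-gene rows only. That was fixed in advance, since each member has its own row and TpnC4, the only unmeasured member, was not tested. The shift of the TpnC73F share in smox was -9.88 percentage points with a pseudocount of 1. No paired analysis was possible because the tables hold no values per library, and leaving out single libraries was not run for the same reason. Depth is unknown, which limits TpnC41C and TpnC4 most.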

Other observations

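In the baboACT table, up and TpnC47D have nearly the same authors' test statistic, -2.312 and -2.313, but deposited p-values of 5e-05 and 0.00355. In smox, up has a statistic of 1.01 and a deposited p of 0.0279, while its two-sided normal tail is 0.314, and wupA has 0.737 and 0.153, against a tail of 0.461. For TpnC25D and TpnC73F in smox, both with a deposited p of 5e-05, the two-sided normal tails were 5.44e-05 and 8.25e-05. As 5e-05 is the lowest deposited p, this closeness says little. For up in baboACT the same deposited p stood beside a normal tail of 0.0208.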
